A study of Mus musculus with 24 samples.

Results

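The 38 genes described here encode markers of hepatic stellate cells, the collagens and other matrix proteins these cells make, the receptors and ligands that act on them, and enzymes that crosslink or degrade matrix. They were taken by gene symbol from 24411 genes counted in 24 mouse liver libraries. By role they comprise 5 fibrillar collagens, 4 basement membrane and microfibrillar collagens, 5 stellate cell identity and contractile genes, 5 TGF-β ligands and PDGF receptors, 5 crosslinking and elastic fibre genes, 8 glycoproteins and proteoglycans, and 6 matrix proteases and inhibitors. All 38 symbols were found in the count files.

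The study asked how hepatocyte ploidy affects injury by acetaminophen (APAP), a drug whose oxidised metabolite kills hepatocytes around the central vein at overdose. All mice were males carrying loxP-flanked E2f7 and E2f8. The LKO line was on a mixed, mainly FVB background with the R26R-mTmG reporter, which the paper also examined in the HKO cohort. LKO mice also carried Alb-Cre, which deletes both genes lifelong in liver parenchyma, and their control littermates had no Cre. HKO mice received AAV8-TBG-Cre, a hepatocyte-directed virus, at 2 months of age, and their controls received AAV8-TBG-Null. Cre in both models acts in hepatocytes (Alb-Cre also in bile duct cells), so stellate cells were not the targeted cells. At 0 h, mice were 2.5 months old, fasted for about 16 h and untreated. The 4 control, 4 LKO, 3 AAV8-TBG-Null and 3 HKO mice of this time were sequenced singly. At 12, 24, 48, 72 and 96 h after 300 mg/kg APAP, given at 2.5 months of age after about 16 h of fasting, 1 control and 1 LKO library were sequenced, each a pool of RNA from 3 mice. The HKO cohort was analysed here at 0 h alone.

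Stellate cells lie between sinusoidal endothelium and hepatocytes and store vitamin A as retinyl ester, made by the enzyme that Lrat encodes. After injury they can become contractile myofibroblasts that express Acta2 and secrete fibrillar collagen, driven by TGF-β and by PDGF acting on PDGF receptors. In a single acute injury this matrix is provisional, and matrix metalloproteinases and their TIMP inhibitors set how fast it is removed. Several of the genes are also used by other liver cells, fibronectin by hepatocytes and type IV collagen by endothelium.

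Reads assigned to genes ranged from 12665686 to 19499897 per library, with a median of 16500386, and 3 counts corresponded to 0.141 to 0.26 CPM, the count of a gene relative to the TMM-scaled library total. The 38 genes took 0.16% to 0.418% of these reads. Reads on no annotated feature were 12.6% to 14.7% in the HKO cohort, 8.47% to 10.7% in the 0 h mice of the LKO cohort, and 13.6% in the 12 h control pool against at most 10.9% in the other pools. E2f8 counted over the whole gene was not lower in the deleted groups, at 25.1 ± 7.04 CPM (SD, n = 4) in LKO against 16.2 ± 3.25 CPM (SD, n = 4) in control mice and 56 ± 26.7 CPM (SD, n = 3) in HKO against 20 ± 5.8 CPM (SD, n = 3) in AAV8-TBG-Null mice. This count includes exons outside the deleted part and so does not check the labels. Directions below follow the groups as labelled, LKO and HKO meaning the libraries labelled so.

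At 0 h the genes spanned a wide range of levels. Per kilobase of exon, Fn1, which encodes fibronectin, was highest at 120 RPKM (range 99.6 to 132.7, 8 mice), followed by the small proteoglycan Dcn at 17.9 RPKM, the collagen-binding glycoprotein Sparc at 16.7 RPKM and the proteoglycan Bgn at 12.6 RPKM. Between Dcn, Sparc and Bgn the ranges overlapped, at 11.7 to 26.5, 14.3 to 18.7 and 8.28 to 14.9 RPKM. Col1a1 and Col1a2, the 2 chains of type I collagen, stood at 0.821 and 0.845 RPKM, and Acta2 at 0.489 RPKM. Lox, Timp1 and Mmp13 were close to the detection limit. Of the 8 mice, 3 had at most 3 counts of Lox, 5 had at most 3 counts of Timp1 and 5 had at most 3 counts of Mmp13.

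The first comparison asked whether deletion of E2f7 and E2f8 changed the matrix genes before injury. A gene was called when its adjusted p-value (edgeR quasi-likelihood test, Benjamini-Hochberg over all genes tested) was under 0.05 and its change at least 1.5-fold. None of the 35 genes that passed the filter on low counts was called in LKO minus control, against 0% of 12426 genes tested. Without adjustment 5 of the 35 had p under 0.05, against 2.83% of all genes, and DESeq2 called 0. Levels were lower in LKO for 29 of the 35, with a median log2 fold change of -0.23 against 0.00 over all genes. Scaling by library size alone brought the median of the 35 to -0.098 and that of all genes to 0.126, and without control replicate 4 the median of the 35 was -0.121.

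Mmp2, a gelatinase of fibroblasts and stellate cells, had the smallest unadjusted p. It read 5.095, 3.63, 5.37 and 4.11 CPM in the 4 control mice and 1.59, 3.23, 3.29 and 2.699 CPM in the 4 LKO mice. All LKO values lay under all control values, the only gene of the 35 with groups that did not overlap and LKO lower, against 0.604% of all genes (log2 fold change -0.74 ± 0.26 (SE), adjusted p = 0.999). Col4a2, a chain of basement membrane collagen, read 27.8, 47.8, 39.8 and 31.2 CPM in control and 33.4, 25.5, 25.3 and 20.7 CPM in LKO mice (-0.48 ± 0.20 (SE), adjusted p = 0.999). Tagln, which encodes the actin-binding protein transgelin, read 5.92, 9.31, 7.88 and 8.88 CPM in control and 5.46, 5.203, 6.29 and 6.37 CPM in LKO mice (-0.45 ± 0.19 (SE), adjusted p = 0.999). For both genes the groups overlapped.

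In HKO minus AAV8-TBG-Null, 0 of 34 genes were called, against 0.96% of 12397 genes tested. Without adjustment 9 of the 34 had p under 0.05 (26.5%, against 12.9% of all genes), and DESeq2 called 0. Thbs1, whose product thrombospondin 1 can activate latent TGF-β, read 0.499, 0.761 and 0.645 CPM in the 3 AAV8-TBG-Null mice and 2.49, 2.305 and 0.993 CPM in the 3 HKO mice. Every HKO value lay above the controls, but the difference did not pass the test (log2 fold change 1.61 ± 0.45 (SE), adjusted p = 0.152). Tgfb1, the main TGF-β ligand of liver, read 6.24, 7.33 and 6.899 CPM in AAV8-TBG-Null and 9.61, 10.2 and 9.67 CPM in HKO mice, again without overlap (0.54 ± 0.16 (SE), adjusted p = 0.176). Col4a2 read 27.9, 33.00 and 26.8 CPM in AAV8-TBG-Null and 24.7, 20.2 and 22.8 CPM in HKO mice, without overlap and in the other direction (-0.36 ± 0.13 (SE), adjusted p = 0.285). In all, 6 of the 34 genes were higher without overlap and 2 were lower, against 7.93% and 10.1% of all genes.

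Thbs1 had opposite signs in the 2 models. In the LKO cohort it read 0.937, 2.13, 2.77 and 2.48 CPM in control and 2.003, 0.767, 0.635 and 0.648 CPM in LKO mice, with 1 control value among the LKO values. The LKO effect minus the HKO effect was -2.66 ± 0.70 (SE), adjusted p = 0.747, and none of 35 genes was called for this difference (0% of 12945 genes tested, 6 of the 35 at unadjusted p under 0.05 against 4.47% of all genes, DESeq2 0). The next smallest p-values belonged to Mmp2 (-1.36 ± 0.42 (SE), adjusted p = 0.883) and Col5a2, a minor fibrillar collagen chain (-0.97 ± 0.35 (SE), adjusted p = 0.914). Mmp2 read 1.68, 2.42 and 2.58 CPM in AAV8-TBG-Null and 2.37, 4.67 and 3.11 CPM in HKO mice, with overlap, beside its LKO cohort values above. Col5a2 read 1.996, 1.73 and 2.902 CPM in AAV8-TBG-Null mice, 3.16, 3.52 and 4.17 CPM in HKO mice, 2.34, 1.99, 2.94 and 1.99 CPM in control mice and 1.93, 1.64, 2.08 and 2.105 CPM in LKO mice. The 2 cohorts also differed in virus and in age at deletion, which cannot be told apart from the difference between models.

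**Figure D1:**
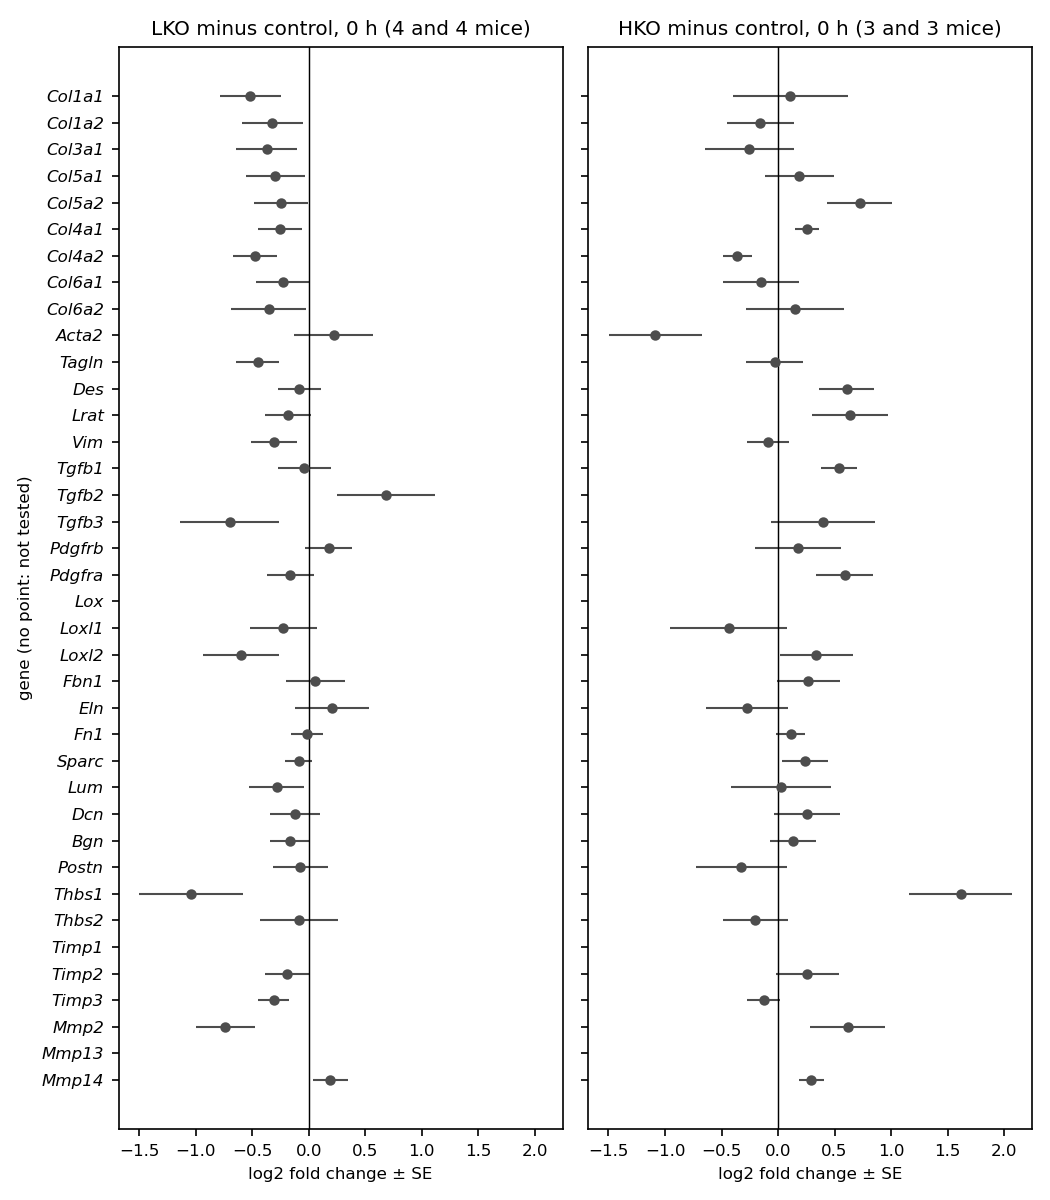
Log2 fold change ± SE (x axis) at 0 h of each gene (y axis) for LKO minus control (left, 4 and 4 mice) and HKO minus AAV8-TBG-Null control (right, 3 and 3 mice). Of the tested genes, 29 of 35 lie left of 0 in the LKO cohort and 12 of 34 in the HKO cohort, and none was called in either.

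Most of the matrix genes rose at 72 h after APAP. Each time point was tested against the 8 mice at 0 h, with the control and LKO pools as its 2 samples and genotype as a covariate, and all 38 genes passed the filter over these 18 libraries. At 12 h, 8 genes were higher and 5 lower, near the shares over all 13855 genes tested (16.7% and 14.3%). At 24 h, 8 were higher and 4 lower (13.9% and 11.7% of all genes), and under library-size scaling 8 were higher and 1 lower. At 48 h, 17 were higher and none lower (9.89% and 6.52% of all genes). At 72 h, 33 were higher and none lower (11% and 5.77% of all genes), and the median log2 fold change was 1.80 over the 38 genes and -0.03 over all genes. At 96 h, 3 were higher (0.332% of all genes), and DESeq2 called 8 higher (2.44% of all genes in either direction). In bulk liver RNA, fewer cells of a type and less RNA per cell cannot be told apart.

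These counts rested in part on single pools. At 72 h, 22 of the 33 genes were called in every fit that left out 1 library. Without the control pool the calls of Col5a1, Col4a1, Col4a2, Des, Lrat, Tgfb1, Pdgfra, Pdgfrb, Thbs1 and Mmp13 were lost, which left 23 when 3.59% of all genes were called, and without the LKO pool those of Thbs1, Mmp2 and Mmp13 were lost. At 48 h, 10 of the 17 remained without the control pool, and Col4a1, Col4a2, Tagln, Pdgfrb, Fbn1, Postn and Thbs1 did not. At 12 h, Col1a1, Col3a1, Pdgfra, Thbs1, Timp3 and Mmp14 were called in every such fit, and the other 7 calls were lost without one or both 12 h pools, with 7 calls in all without the LKO pool. The 24 h calls fell to 2 without the control pool of that time and to 3 without the LKO pool, when 11% and 8.17% of all genes were called, and 0 of the 12 calls at 24 h held in every fit that left out 1 library. The 96 h calls fell to 0 without either 96 h pool, without control replicate 1 or 2 or without LKO replicate 3 at 0 h, and to 1 without control replicate 4, LKO replicate 1 or LKO replicate 2. Lox, Timp1 and Mmp13 did not pass the filter in the 0 h mice alone. Of the 35 that did, 30 were higher at 72 h, against 15 at 48 h and 6 at 24 h. The groups did not overlap for 31 of the 38 at 72 h, against 15% of all genes in that direction.

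**Figure D2:**
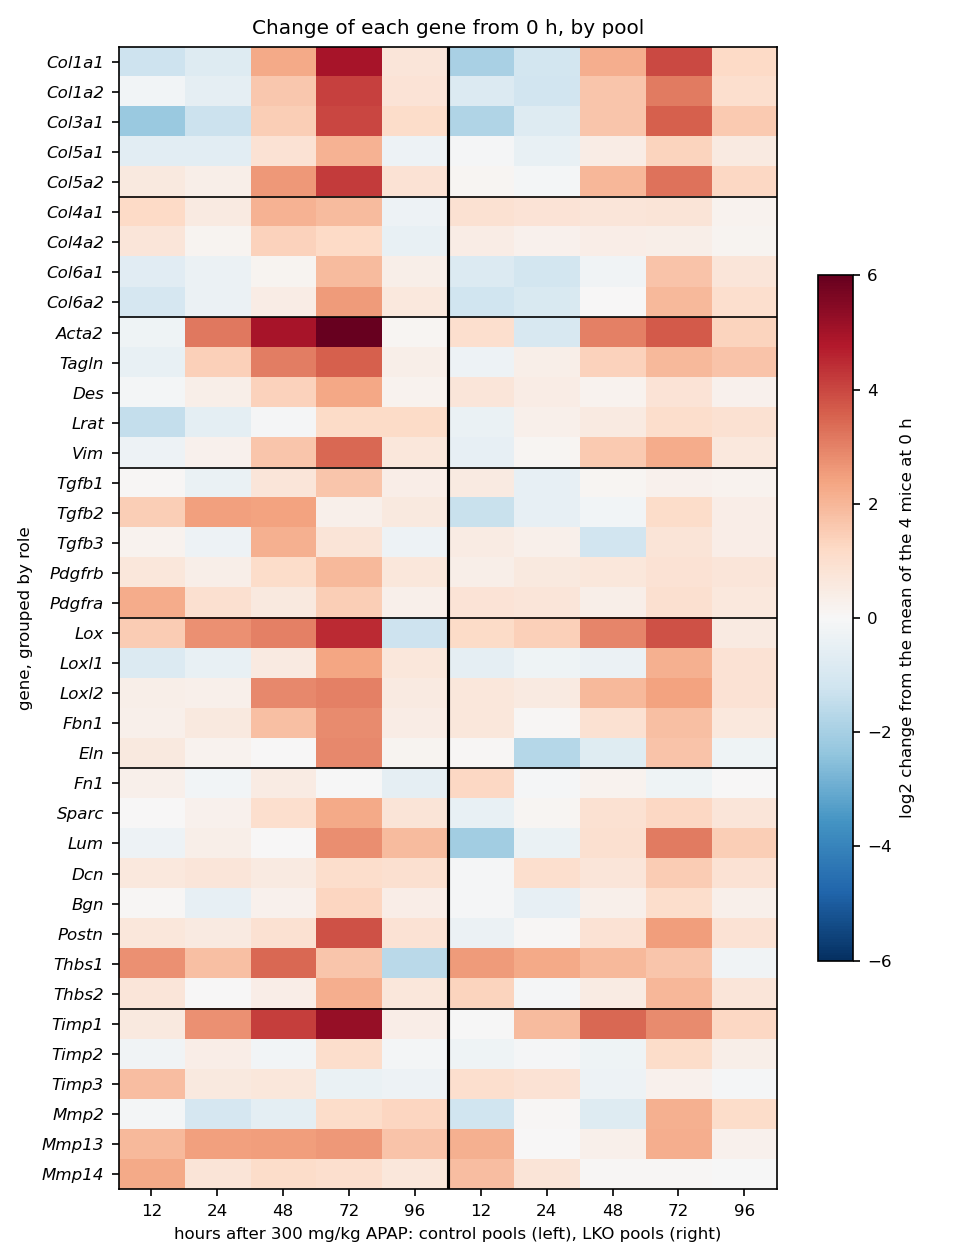
Colour gives the log2 change of each gene (y axis, grouped by role with horizontal lines) in each pool from the mean of the 4 mice of its own genotype at 0 h. Columns are hours after APAP, control pools to the left and LKO pools to the right of the vertical line. The 72 h columns hold at least 2-fold rises for 34 of 38 genes in control and 28 of 38 in LKO, against 16% and 9.81% of all genes.

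Col1a1 and Col3a1 fell at 12 h, and all 5 fibrillar collagens rose at 72 h. Values per library below are CPM scaled by TMM factors, and pool values are given in the order 12, 24, 48, 72 and 96 h. Col1a1 ranged from 3.98 to 10.03 CPM (median 4.84) over the 8 mice at 0 h. It read 2.45, 3.48, 29.4, 189.8 and 10.01 CPM in the control pools and 1.06, 2.01, 20.5, 71.00 and 10.1 CPM in the LKO pools. Both pools at 12 h and at 24 h lay under every 0 h mouse, and both at 48 and 72 h lay above. The log2 fold change was -1.66 ± 0.34 (SE), adjusted p = 0.0015 at 12 h and 4.50 ± 0.23 (SE), adjusted p = 2.92e-09 at 72 h. Col3a1, encoding type III collagen of the reticulin fibres, ranged from 15.7 to 36.96 CPM (median 17.3) at 0 h and read 4.77, 9.31, 63.8, 378 and 49.7 CPM in control and 5.08, 10.8, 57.9, 219 and 54.3 CPM in LKO pools. Its log2 fold change was -2.10 ± 0.33 (SE), adjusted p = 0.000179 at 12 h, -1.08 (adjusted p = 0.0128, lost without either 24 h pool) at 24 h and 3.78 ± 0.23 (SE), adjusted p = 1.2e-08 at 72 h. Col3a1 was also among the 3 genes higher at 96 h (1.29 ± 0.25 (SE), adjusted p = 0.0373), where both pools lay above all 0 h mice.

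Col1a2 ranged from 6.63 to 17.1 CPM (median 9.91) at 0 h and read 9.94, 7.81, 35.2, 194 and 20.2 CPM in control and 5.02, 4.02, 29.1, 80.3 and 18.3 CPM in LKO pools. It fell at 24 h (-0.89 ± 0.31 (SE), adjusted p = 0.0405), a call lost under library-size scaling and without any 1 of 6 libraries (control replicates 1 and 4 and LKO replicates 2 and 4 at 0 h, and either 24 h pool), and rose at 72 h (3.62 ± 0.24 (SE), adjusted p = 3.6e-08). Col5a2 ranged from 1.64 to 2.94 CPM (median 2.04) at 0 h and read 3.51, 2.94, 14.3, 43.6 and 4.34 CPM in control and 2.13, 1.75, 8.03, 19.3 and 4.74 CPM in LKO pools. It was not called at 12 h (0.38 ± 0.26 (SE), adjusted p = 0.264) and rose at 48 h (2.35 ± 0.22 (SE), adjusted p = 3.42e-06), 72 h (3.81 ± 0.21 (SE), adjusted p = 3.93e-09) and 96 h (1.13 ± 0.24 (SE), adjusted p = 0.0492). Col5a1 ranged from 5.39 to 12.1 CPM (median 9.98) at 0 h and read 6.23, 6.19, 17.9, 41.8 and 7.91 CPM in control and 7.68, 5.82, 10.8, 20.2 and 11.7 CPM in LKO pools, and it rose at 72 h (1.73 ± 0.27 (SE), adjusted p = 0.000237). All 5 fibrillar collagens passed the test at 72 h, with a median log2 fold change of 3.78, above the medians of the other 6 roles (1.05 to 2.91).

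**Figure D3:**
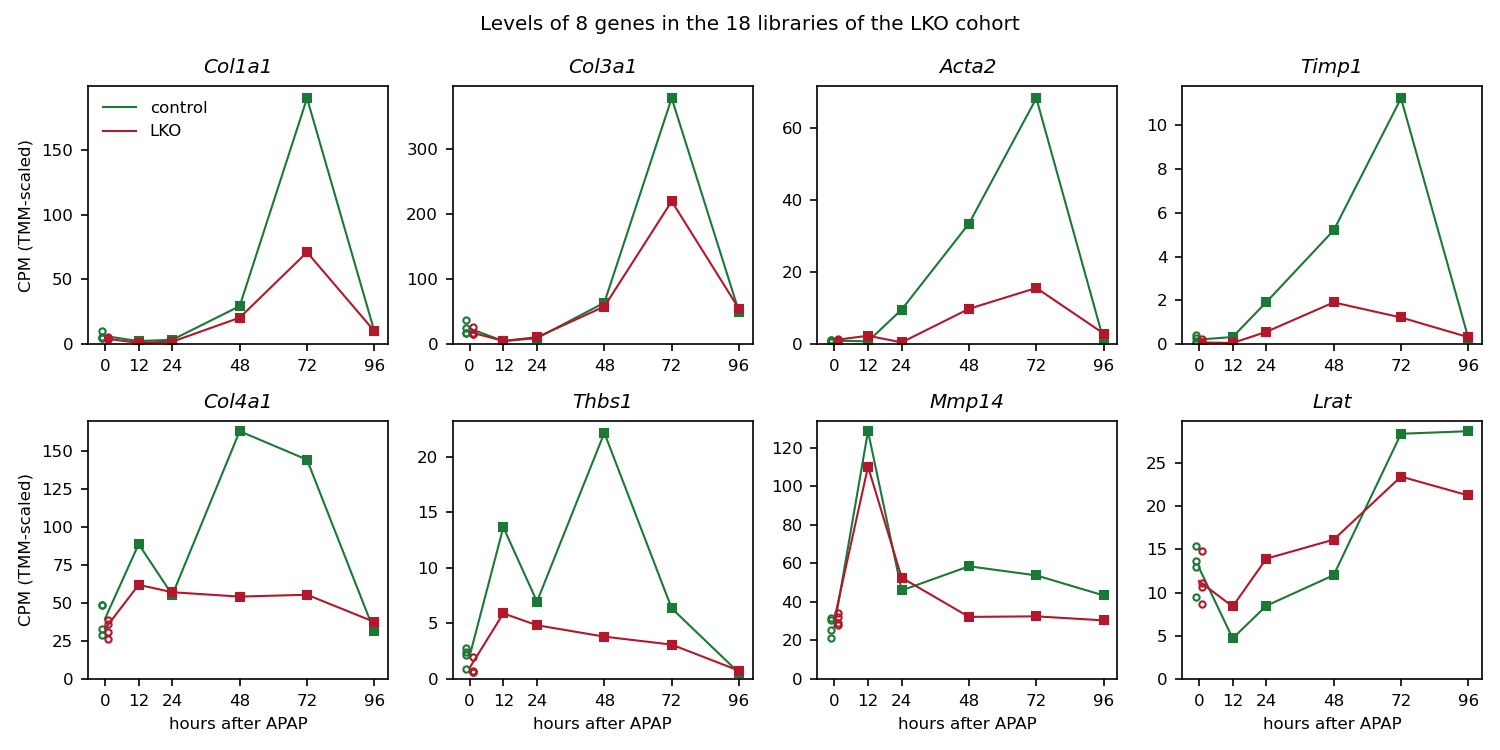
CPM (y axis) against hours after APAP (x axis) for 8 genes in control (green) and LKO (red) livers. Open circles are single mice at 0 h, squares are pools of 3 mice, and lines join the 0 h mean to the pools. Col1a1, Col3a1 and Acta2 are highest at 72 h in both genotypes, whereas Mmp14 is highest at 12 h.

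The basement membrane collagen genes Col4a1 and Col4a2 rose at 48 and 72 h. Col4a1, the partner chain of Col4a2, ranged from 26.6 to 48.6 CPM (median 34.3) at 0 h and read 88.6, 55.3, 163, 144 and 31.3 CPM in control and 61.9, 57.04, 54.2, 55.4 and 37.5 CPM in LKO pools. It rose at 12 h (1.04 ± 0.28 (SE), adjusted p = 0.00954), 48 h (1.48 ± 0.28 (SE), adjusted p = 0.0018) and 72 h (1.38 ± 0.28 (SE), adjusted p = 0.00248). Col4a2 ranged from 20.7 to 47.8 CPM (median 29.5) at 0 h and read 58.5, 39.6, 94.95, 82.2 and 26.4 CPM in control and 35.7, 30.6, 33.8, 32.99 and 29.2 CPM in LKO pools, and rose at 48 h (0.93 ± 0.25 (SE), adjusted p = 0.0177) and 72 h (0.79 ± 0.25 (SE), adjusted p = 0.0391). Both genes were highest at 48 h among the control pools and at 12 h among the LKO pools. At 48 and 72 h only the control pools lay above the range of the 0 h mice by more than 1.5-fold.

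Col6a1 and Col6a2 encode chains of the beaded microfibrils of type VI collagen. Col6a1 ranged from 6.29 to 12.1 CPM (median 7.44) at 0 h and read 5.37, 6.73, 9.94, 33.5 and 11.1 CPM in control and 4.25, 3.504, 6.63, 25.2 and 12.7 CPM in LKO pools. Col6a2 ranged from 2.42 to 7.37 CPM (median 3.67) at 0 h and read 2.12, 3.36, 6.105, 26.05 and 6.93 CPM in control and 1.54, 1.85, 3.65, 14.5 and 7.54 CPM in LKO pools. Both fell at 12 h (-0.80 ± 0.27 (SE), adjusted p = 0.0288 for Col6a1 and -1.21 ± 0.37 (SE), adjusted p = 0.0176 for Col6a2) and both rose at 72 h (1.80 ± 0.22 (SE), adjusted p = 1.78e-05 and 2.22 ± 0.28 (SE), adjusted p = 2.57e-05). Col6a1 was also lower at 24 h (-0.75 ± 0.27 (SE), adjusted p = 0.0429), a call lost when any of several single libraries was left out.

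The promoter windows of 4 collagen genes are shown because Col1a2 and Col3a1 were both called lower at 24 h and higher at 72 h, and Col4a1 and Col4a2 both higher at 48 and 72 h. Windows run from 250 bases before to 50 bases after the annotated start (RefSeq, GRCm38.p6), are written 5′ to 3′ on the strand of the gene, and have CCAAT (or ATTGG on the other strand) and TATAAA (or TTTATA) in capitals.
Col1a2 (chr6:4505368-4505667, + strand): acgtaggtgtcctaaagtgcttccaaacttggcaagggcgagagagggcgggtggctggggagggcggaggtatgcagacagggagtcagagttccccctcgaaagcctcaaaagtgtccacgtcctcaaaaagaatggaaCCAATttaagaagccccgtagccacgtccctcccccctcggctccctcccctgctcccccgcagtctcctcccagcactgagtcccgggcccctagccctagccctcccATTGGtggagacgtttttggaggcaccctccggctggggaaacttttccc
Col3a1 (chr1:45311288-45311587, + strand): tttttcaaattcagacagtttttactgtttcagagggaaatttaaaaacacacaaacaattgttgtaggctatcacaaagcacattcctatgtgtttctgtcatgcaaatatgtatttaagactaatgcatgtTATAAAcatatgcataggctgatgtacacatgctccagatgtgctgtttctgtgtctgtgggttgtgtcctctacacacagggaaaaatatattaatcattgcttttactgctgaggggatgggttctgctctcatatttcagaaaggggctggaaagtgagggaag
Col4a1 (chr8:11312777-11313076, - strand): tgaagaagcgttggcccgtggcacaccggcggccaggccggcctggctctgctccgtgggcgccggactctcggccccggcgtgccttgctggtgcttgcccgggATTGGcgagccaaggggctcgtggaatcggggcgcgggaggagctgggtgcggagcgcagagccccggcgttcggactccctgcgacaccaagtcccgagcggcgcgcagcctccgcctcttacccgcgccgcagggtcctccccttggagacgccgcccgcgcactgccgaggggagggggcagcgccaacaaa
Col4a2 (chr8:11312555-11312854, + strand): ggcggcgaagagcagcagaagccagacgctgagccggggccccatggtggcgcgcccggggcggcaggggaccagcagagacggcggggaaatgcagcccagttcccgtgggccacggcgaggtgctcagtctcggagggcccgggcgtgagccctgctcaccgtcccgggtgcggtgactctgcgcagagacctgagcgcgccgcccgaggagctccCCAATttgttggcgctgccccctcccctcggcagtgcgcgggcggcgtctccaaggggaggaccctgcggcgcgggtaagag
Col4a1 and Col4a2 lie head to head on opposite strands, with annotated starts 21 bases apart, so that their windows share 78 bases. The CCAAT match began 109 bases before the start of Col1a2 and 32 bases before that of Col4a2, and the match on the other strand began 145 bases before that of Col4a1. An ATTGG match also began at the start of Col1a2 itself. TATAAA began 117 bases before the start of Col3a1.

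RefSeq windows matched 24 of the 38 genes by symbol. A CCAAT match was present in 11 of the 24, among them Timp1, Vim and Mmp14, and in 41.1% of all 27025 genes with a window. A TATAAA match was present in 6 of the 24, including Postn and Mmp13, and in 15.7% of all such genes. The AP-1 motif (TGAGTCA or TGACTCA, which are reverse complements of each other) was found in the windows of Col6a1 and Mmp13, and in 5.95% of all such genes. The CArG box, the site of serum response factor, was in 0 of the 24 and in 1.81% of all such genes. A match describes letters in the window and says nothing of binding.

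The contractile genes Acta2 and Tagln rose at 48 and 72 h. Acta2, encoding smooth muscle α-actin, ranged from 0.703 to 1.59 CPM (median 1.06) at 0 h and read 0.796, 9.61, 33.5, 68.2 and 1.05 CPM in the control pools and 2.36, 0.515, 9.83, 15.6 and 2.96 CPM in the LKO pools. At 24 h the control pool stood above all 0 h mice and the LKO pool below all of them, and the call at that time (1.95 ± 0.69 (SE), adjusted p = 0.0422) became -0.96 (adjusted p = 0.572) without the control pool. At 48 h (4.15 ± 0.60 (SE), adjusted p = 0.000189) and 72 h (5.08 ± 0.60 (SE), adjusted p = 1.18e-05) both pools exceeded every 0 h mouse. Tagln ranged from 5.203 to 9.31 CPM (median 6.33) at 0 h and read 5.83, 21.3, 66.8, 96.1 and 10.2 CPM in control and 4.67, 7.47, 15.5, 23.02 and 19.01 CPM in LKO pools (2.38 ± 0.36 (SE), adjusted p = 0.000287 at 48 h and 2.92 ± 0.35 (SE), adjusted p = 1.64e-05 at 72 h). Vim, the intermediate filament of mesenchymal cells, ranged from 12.9 to 26.3 CPM (median 16.9) at 0 h and read 15.2, 22.7, 58.7, 208 and 29.7 CPM in control and 11.05, 17.00, 46.8, 72.5 and 24.1 CPM in LKO pools (2.91 ± 0.21 (SE), adjusted p = 8.27e-08 at 72 h). Smooth muscle of vessels also expresses Acta2 and Tagln, and in both genotypes these genes were above all 0 h mice at 48 and 72 h.

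Lrat and Des, which quiescent stellate cells express, rose at 72 h. Lrat ranged from 8.63 to 15.4 CPM (median 12.02) at 0 h and read 4.71, 8.47, 12.01, 28.3 and 28.6 CPM in control and 8.39, 13.9, 16.1, 23.4 and 21.2 CPM in LKO pools. It fell at 12 h (-0.88 ± 0.29 (SE), adjusted p = 0.0248) and rose at 72 h (1.10 ± 0.24 (SE), adjusted p = 0.00485). Des, encoding desmin of stellate and muscle cells, ranged from 4.099 to 5.696 CPM (median 4.63) at 0 h, read 4.51, 6.25, 13.1, 24.7 and 5.74 CPM in control and 7.62, 6.34, 5.28, 8.13 and 5.55 CPM in LKO pools, and rose at 72 h (1.72 ± 0.30 (SE), adjusted p = 0.000749). Both genes were above all 0 h mice at 72 h in both genotypes.

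Of the ligands and receptors, Tgfb1, Pdgfra and Pdgfrb were called higher at 72 h, and all these calls were lost without the control pool of that time. Tgfb1 ranged from 5.45 to 10.9 CPM (median 9.07) at 0 h and read 9.02, 6.37, 13.98, 26.97 and 11.2 CPM in control and 12.3, 5.98, 9.21, 10.2 and 9.64 CPM in LKO pools. It was called higher at 72 h (1.05 ± 0.28 (SE), adjusted p = 0.0139), where the LKO pool lay within the 0 h range. Tgfb2 and Tgfb3, the other TGF-β ligands, were low, at 0.355 to 1.29 CPM (median 0.651) and 0.486 to 2.16 CPM (median 1.27) at 0 h, and neither was called at any time point. Tgfb2 read 1.66, 3.36, 3.28, 0.656 and 0.8404 CPM in control and 0.236, 0.515, 0.674, 1.83 and 1.08 CPM in LKO pools. Tgfb3 read 1.86, 1.26, 7.32, 2.82 and 1.26 CPM in control and 1.300, 1.13, 0.337, 1.64 and 1.24 CPM in LKO pools, with its highest value in the 48 h control pool. Pdgfra, a PDGF receptor of mesenchymal cells, ranged from 4.08 to 7.27 CPM (median 6.11) at 0 h and read 30.2, 12.6, 9.74, 18.04 and 7.84 CPM in control and 10.04, 9.33, 7.24, 11.04 and 8.83 CPM in LKO pools. It was an early riser, at 1.65 ± 0.25 (SE), adjusted p = 0.000148 at 12 h, and was also higher at 24 h (0.84, adjusted p = 0.0232, lost without either 24 h pool) and 72 h (1.23, adjusted p = 0.00275). Pdgfrb, the receptor through which PDGF drives stellate cell proliferation, ranged from 6.56 to 11.5 CPM (median 8.92) at 0 h, read 13.2, 10.6, 17.6, 31.4 and 13.3 CPM in control and 11.6, 13.7, 14.5, 16.8 and 14.9 CPM in LKO pools, and rose at 48 h (0.87, adjusted p = 0.0158) and 72 h (1.45 ± 0.22 (SE), adjusted p = 0.000209).

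Genes for crosslinking and elastic fibres were all called at 72 h. Lox, the founding lysyl oxidase, ranged from 0 to 0.483 CPM (median 0.346) at 0 h and read 1.19, 2.94, 3.58, 10.1 and 0.07003 CPM in control and 0.473, 0.618, 1.97, 3.67 and 0.269 CPM in LKO pools. Its fitted log2 fold change of 4.51 ± 0.50 (SE), adjusted p = 6.76e-06 at 72 h is uncertain in size, since several 0 h mice held few reads. Loxl1, which crosslinks elastin, ranged from 1.16 to 2.84 CPM (median 1.93) at 0 h and read 1.13, 1.502, 3.13, 11.1 and 3.36 CPM in control and 1.18, 1.44, 1.35, 8.03 and 3.28 CPM in LKO pools (2.27 ± 0.27 (SE), adjusted p = 1.2e-05 at 72 h). Loxl2, which crosslinks collagen, ranged from 1.105 to 3.56 CPM (median 2.07) at 0 h and read 3.18, 3.004, 19.1, 20.9 and 3.57 CPM in control and 2.72, 2.47, 6.79, 9.44 and 3.07 CPM in LKO pools, and rose from 48 h (2.49 ± 0.29 (SE), adjusted p = 2.08e-05, and 2.76 ± 0.28 (SE), adjusted p = 2.93e-06 at 72 h). Fbn1, the scaffold of elastic microfibrils, ranged from 2.003 to 3.505 CPM (median 3.08) at 0 h and read 3.51, 4.33, 9.99, 20.9 and 3.85 CPM in control and 4.61, 3.04, 5.61, 10.4 and 4.58 CPM in LKO pools (2.40 ± 0.26 (SE), adjusted p = 6.32e-06 at 72 h). Eln, encoding elastin itself, ranged from 1.73 to 4.83 CPM (median 3.33) at 0 h and read 4.51, 3.48, 3.03, 22.6 and 3.43 CPM in control and 3.78, 1.03, 2.13, 12.3 and 2.96 CPM in LKO pools (2.28 ± 0.33 (SE), adjusted p = 0.000125 at 72 h). Eln stood above the 0 h mice in both pools at 72 h and at no other time.

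Of the 8 glycoproteins and proteoglycans, 7 were called higher at 72 h, all but Fn1. Postn, encoding the matricellular protein periostin, ranged from 2.74 to 5.56 CPM (median 4.698) at 0 h and read 7.09, 6.55, 8.63, 64.6 and 8.26 CPM in control and 3.19, 4.38, 7.52, 24.3 and 7.59 CPM in LKO pools (3.25 ± 0.25 (SE), adjusted p = 1.33e-07 at 72 h). Lum, a collagen-binding proteoglycan, ranged from 4.14 to 9.35 CPM (median 5.94) at 0 h and read 5.64, 8.95, 7.01, 49.4 and 26.6 CPM in control and 1.24, 4.28, 11.1, 49.6 and 15.7 CPM in LKO pools (2.96 ± 0.30 (SE), adjusted p = 2.87e-06 at 72 h and 1.68 ± 0.32 (SE), adjusted p = 0.0364 at 96 h). The 72 h values of Lum were nearly equal in the 2 genotypes. Sparc ranged from 54.2 to 70.8 CPM (median 62.4) at 0 h and read 65.6, 78.7, 131, 313 and 112 CPM in control and 44.4, 66.6, 114, 143 and 103 CPM in LKO pools (1.80 ± 0.17 (SE), adjusted p = 1.09e-06 at 72 h).

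Dcn ranged from 68.03 to 155 CPM (median 104) at 0 h and read 163, 175, 155, 223 and 206 CPM in control and 93.2, 197, 163, 283 and 177 CPM in LKO pools (1.29 ± 0.23 (SE), adjusted p = 0.00085 at 72 h). Bgn ranged from 50.5 to 90.6 CPM (median 80.1) at 0 h and read 85.4, 56.9, 97.1, 199 and 105 CPM in control and 67.9, 50.3, 86.6, 147 and 87.02 CPM in LKO pools (1.17 ± 0.16 (SE), adjusted p = 7.98e-05 at 72 h). Thbs2, a relative of Thbs1, ranged from 0.917 to 2.05 CPM (median 1.28) at 0 h, read 2.32, 1.38, 1.87, 6.63 and 2.24 CPM in control and 3.43, 1.24, 1.91, 5.64 and 2.26 CPM in LKO pools, and was higher at 12 h (1.05, adjusted p = 0.0149) and 72 h (2.13 ± 0.28 (SE), adjusted p = 4.68e-05). Thbs1 ranged from 0.635 to 2.77 CPM (median 1.47) at 0 h and read 13.7, 6.97, 22.1, 6.36 and 0.5602 CPM in control and 5.91, 4.84, 3.82, 3.101 and 0.754 CPM in LKO pools. It was called higher at 12 h (2.66 ± 0.40 (SE), adjusted p = 0.000149) and at each time to 72 h (2.04, 2.87 and 1.64 in order), and both pools from 12 to 72 h exceeded every 0 h mouse. Fn1 ranged from 1164 to 1551 CPM (median 1416) at 0 h, read 1723, 1239.7, 1969.6, 1378 and 953 CPM in control and 3249, 1306, 1595, 1177 and 1392 CPM in LKO pools, and was called at 12 h alone (0.82 ± 0.20 (SE), adjusted p = 0.00571).

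Of the 6 proteases and inhibitors, Mmp14, Timp3 and Mmp13 were called higher at 12 h. Mmp14, a membrane-anchored collagenase that activates the Mmp2 proenzyme, ranged from 21.1 to 34.5 CPM (median 29.6) at 0 h and read 128, 45.96, 58.5, 53.7 and 43.3 CPM in control and 110.1, 52.6, 32.2, 32.5 and 30.4 CPM in LKO pools. Both 12 h pools stood far above all 0 h mice (2.03 ± 0.20 (SE), adjusted p = 3.31e-06), and the gene was not called at 72 h (0.55 ± 0.22 (SE), adjusted p = 0.0926). Timp3, a matrix-bound inhibitor, ranged from 21.7 to 34.98 CPM (median 27.8) at 0 h and read 106, 44.3, 47.8, 22.6 and 24.1 CPM in control and 48.7, 43.5, 19.6, 28.2 and 23.2 CPM in LKO pools, with a rise at 12 h (1.48 ± 0.22 (SE), adjusted p = 0.000128) and none at 72 h (-0.04 ± 0.24 (SE), adjusted p = 0.923). Mmp13, the main interstitial collagenase of rodents, was at 0 counts in 3 of 8 mice at 0 h and read 0.597, 0.901, 0.908, 0.984 and 0.4902 CPM in control and 1.48, 0.258, 0.337, 1.55 and 0.323 CPM in LKO pools. Its calls at 12 h (2.40 ± 0.83 (SE), adjusted p = 0.0324) and 72 h (2.70 ± 0.80 (SE), adjusted p = 0.0262) rested on few reads. The 12 h control pool held the most reads on no annotated feature among the pools. It also had the highest summed cholangiocyte marker level, 146.3 CPM against 22.4 to 27.3 CPM at 0 h. Of the 5 such markers tested, 1 (Sox9) was called higher at 12 h, against 16.7% of all genes. Their median log2 fold change was 0.19. The part of these differences in the 12 h calls was not tested.

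Timp1, an inhibitor that stellate cells and macrophages secrete on activation, ranged from 0 to 0.423 CPM (median 0.101) at 0 h, with 0 counts in 2 of 8 mice. It read 0.331, 1.92, 5.197, 11.2 and 0.2801 CPM in control and 0.0591, 0.567, 1.91, 1.22 and 0.323 CPM in LKO pools, and was called at 24 h (2.92, adjusted p = 0.00361, lost without the control pool), 48 h (4.50 ± 0.59 (SE), adjusted p = 7.67e-05) and 72 h (4.95 ± 0.58 (SE), adjusted p = 1.11e-05). These fitted folds rest on few reads at 0 h. Timp2, the inhibitor that takes part in Mmp2 activation, ranged from 10.4 to 20.3 CPM (median 15.7) at 0 h and read 14.1, 21.6, 14.7, 34.4 and 15.1 CPM in control and 11.99, 13.6, 11.96, 30.97 and 18.3 CPM in LKO pools (1.09 ± 0.19 (SE), adjusted p = 0.000781 at 72 h). Mmp2 ranged from 1.59 to 5.37 CPM (median 3.46) at 0 h and read 4.18, 2.16, 2.98, 9.71 and 11.2 CPM in control and 1.06, 2.73, 1.46, 11.7 and 5.65 CPM in LKO pools (1.68 ± 0.32 (SE), adjusted p = 0.00153 at 72 h). Counts were made without regard to strand. The spans of some genes overlap another, among them Timp1 (Syn1), Timp2 (Cep295nl), Timp3 (Syn3), Tgfb3 (Ttll5), Tagln (Pcsk7) and the pair Col4a1 and Col4a2. Overlap of their exons was not examined, so values of these genes may be uncertain.

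**Figure D4:**
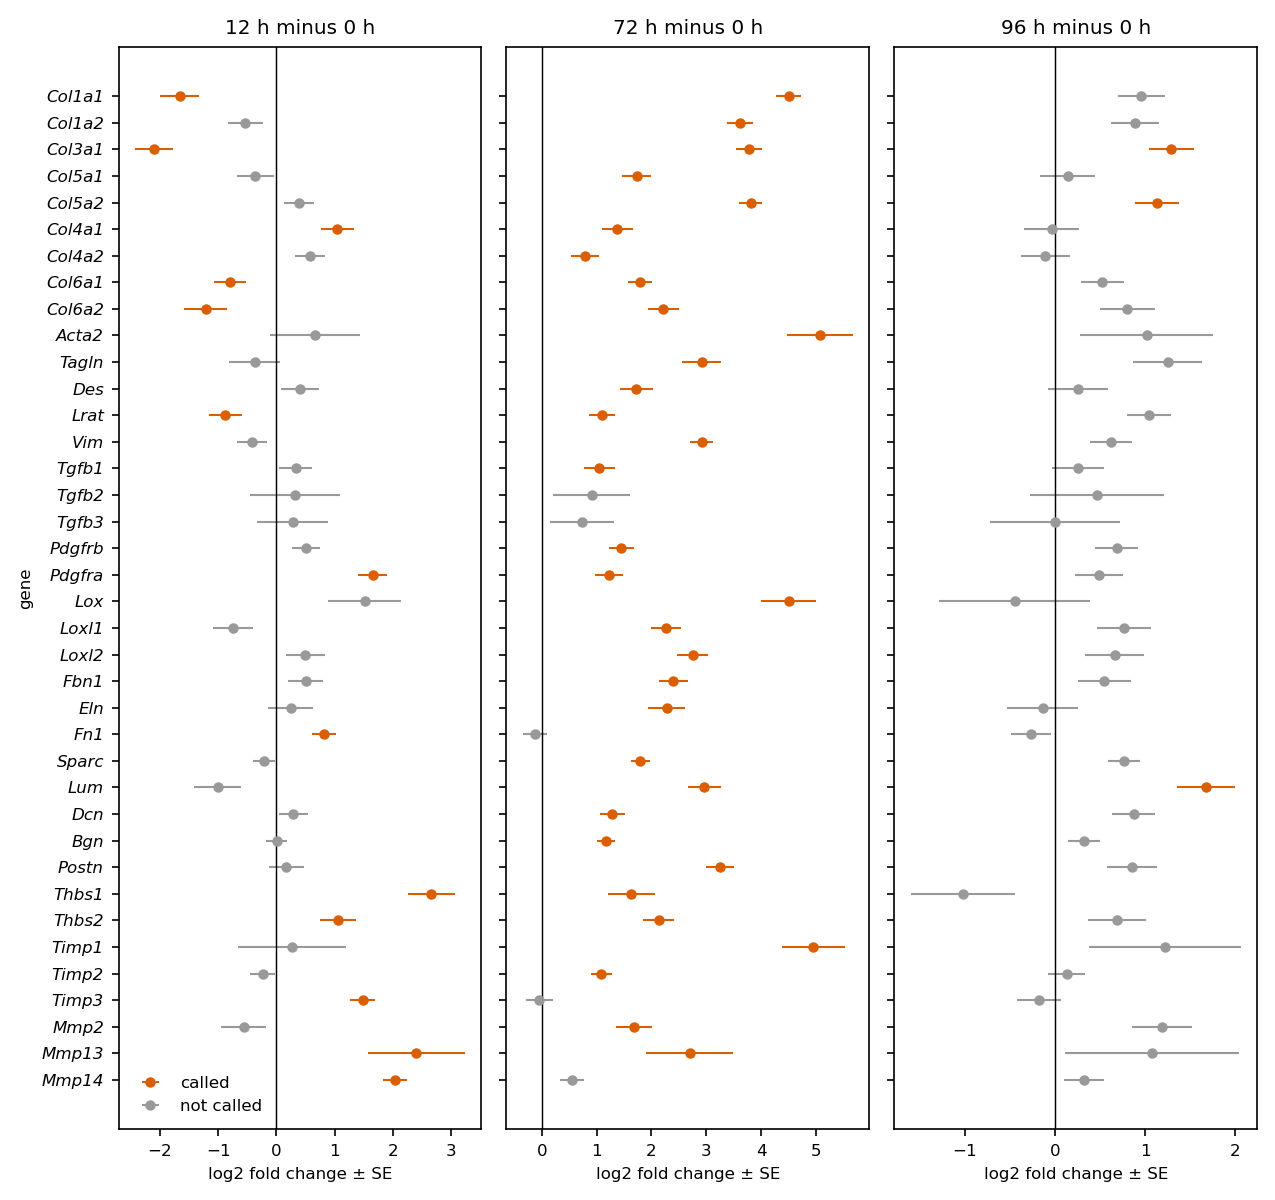
Log2 fold change ± SE (x axis) of each of the 38 genes (y axis) at 12, 72 and 96 h against 0 h, orange where called and grey where not. Calls lie on both sides of 0 at 12 h (8 higher, 5 lower), all to the right at 72 h (33) and are 3 at 96 h.

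The later pools were set against the earlier pools in the same fit of 18 libraries. The 0 h mice were not part of this contrast but entered the filter and the estimate of spread. The mean of 72 and 96 h exceeded the mean of 12 and 24 h for 29 of the 38 genes, of which 23 were called, and was lower for 9, of which 3 were called, against calls for 15.8% and 15% of all genes. Col3a1 (4.12 ± 0.28 (SE), adjusted p = 1.75e-07) and Col1a1 (4.06 ± 0.28 (SE), adjusted p = 1.76e-07) had the largest differences. The 3 genes called lower were Thbs1 (-2.04 ± 0.43 (SE), adjusted p = 0.00191), Timp3 (-1.21 ± 0.22 (SE), adjusted p = 0.000628) and Mmp14 (-0.96 ± 0.20 (SE), adjusted p = 0.00193). Without the 72 h pools 12 genes were higher and 3 lower. Acta2, among the higher genes (1.74 ± 0.63 (SE), adjusted p = 0.0394), then had a value of -0.39 (adjusted p = 0.745). Across the 5 times, 27 of the 38 genes had their highest control pool at 72 h and 30 their highest LKO pool, against 20.6% and 16.1% of all genes.

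Levels in the 5 LKO pools were compared with those in the 5 control pools after APAP, leaving out the 0 h mice and blocking on time point. No gene of the 38 was called in this edgeR fit, against 0.579% of 12782 genes tested, while 17 had an unadjusted p under 0.05 (44.7%, against 17.9% of all genes). LKO was lower for 35 of the 38, with a median log2 fold change of -0.58 over the 38 genes and -0.01 over all genes. At 0 h, LKO levels were already lower for 29 of the 35 genes tested. The smallest adjusted p-values belonged to Timp1 (-1.86 ± 0.46 (SE), adjusted p = 0.0966), Col1a2 (-0.73 ± 0.19 (SE), adjusted p = 0.106) and Col1a1 (-0.77 ± 0.21 (SE), adjusted p = 0.116), whose pool values are given above. In DESeq2 6 genes were called lower (Col1a1, Col1a2, Col4a2, Tagln, Thbs1 and Timp1), against 4.74% of all genes in either direction. In edgeR without the 96 h pools 3 were called lower (1.37% of all genes in either direction), namely Col1a1 (-0.99, adjusted p = 0.0476), Tagln (-1.57, adjusted p = 0.0305) and Timp1 (-2.19, adjusted p = 0.0374). Over all alternatives the adjusted p of Timp1 ran from 0.0075 to 0.764.

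Pool by pool, with no test at a single time, LKO was lower than control for 27, 29, 34, 32 and 18 of the 38 genes in time order (51.5%, 47.2%, 50.2%, 50.3% and 50% of all genes). At 72 h, 17 genes were at least 2-fold lower (44.7%, against 6.99% of all genes). Among these, the control pool exceeded the LKO pool 9.18-fold for Timp1, 4.37-fold for Acta2, 4.18-fold for Tagln and 3.04-fold for Des. Reads on no annotated feature were 7.29% in the 72 h control pool and 10.4% in the 72 h LKO pool. The 10 genes with most reads took 21.3% and 16.4% of gene reads. The part of these library differences was not tested. At 72 h Tgfb2 was at least 2-fold higher in LKO (6.52% of all genes), and the other 5 genes that were not lower in LKO were Lum, Dcn, Mmp2, Mmp13 and Timp3. At 96 h no gene was at least 2-fold lower (4.67% of all genes), Acta2 and Lox were at least 2-fold higher (6.48% of all genes), Lox on 1 read in the control and 5 in the LKO pool, and the median log2 ratio was 0.01. The genes lower in LKO at all 5 times were 8 (Col1a2, Vim, Tgfb3, Loxl2, Eln, Sparc, Bgn and Postn), or 21.1% against 8.53% of all genes, and none was higher at all 5 times (8.7% of all genes).

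**Figure D5:**
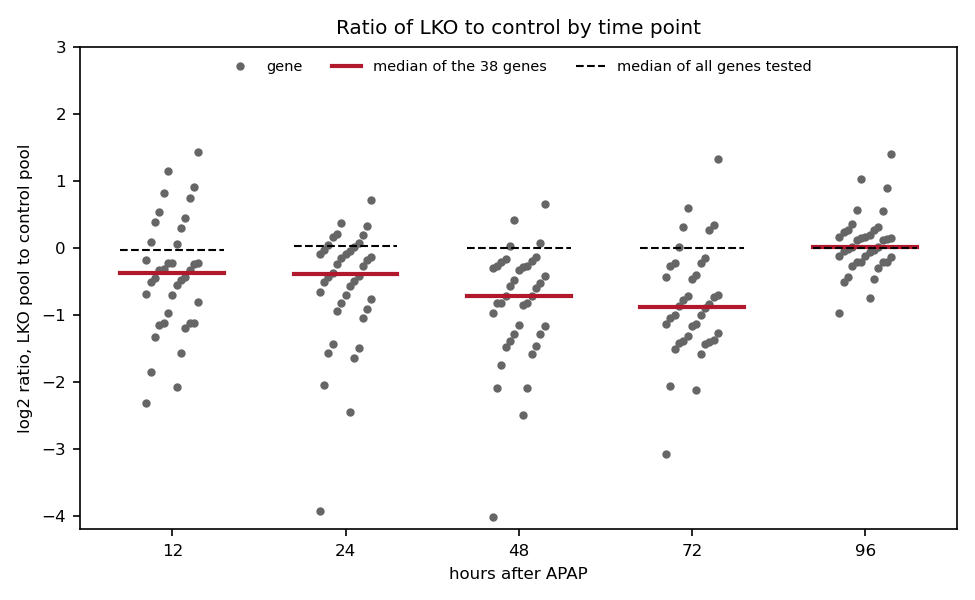
Log2 ratio of the LKO pool to the control pool (y axis) at each time after APAP (x axis) for the 38 genes (grey points). Red bars mark their median, which is -0.38, -0.40, -0.72, -0.89 and 0.01 from 12 to 96 h, and dashed bars mark the median over all genes.

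Against the 0 h mean of its own genotype, each pool had its own fold change. At 72 h Col1a1 stood 30-fold above its 0 h mean in control and 16-fold in LKO, Acta2 68.1-fold and 13.6-fold, and Postn 14.4-fold and 5.71-fold. Col4a2 stood 2.24-fold and 1.26-fold above, and Col6a1 3.71-fold and 3.27-fold. Genes with the larger rise in LKO included Lum (6.94-fold in control and 8.56-fold in LKO), Dcn (2.04-fold and 2.83-fold) and Mmp2 (2.13-fold and 4.35-fold). Whether the genotype difference after APAP differed from that at 0 h was tested over all 18 libraries. The difference was more negative after APAP for 31 of the 38 (median -0.32 on the log2 scale), and 0 of 38 genes were called (0% of all genes, DESeq2 0). Without adjustment 3 of the 38 had p under 0.05 (7.89%, against 9.43% of all genes). The smallest p-values belonged to Mmp14 (-0.62 ± 0.23 (SE), adjusted p = 0.48), Eln (-0.91 ± 0.43 (SE), adjusted p = 0.527) and Tgfb2 (-1.86 ± 0.87 (SE), adjusted p = 0.528). The genotype difference after APAP was not shown to differ from that before APAP.

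Further genes of the matrix and of TGF-β and PDGF signalling were counted from wider lists at 72 h. Over all genes tested at this time 11% were called higher and 5.77% lower. Among other collagens 6 of 15 tested were higher, led by Col6a3 (log2 fold change 2.56) and Col8a1 (2.40), and 4 were lower. Among genes of collagen processing 7 of 17 were higher, with Fkbp10 at 2.73 and the collagen chaperone Serpinh1 at 1.95, and none lower. Of other matrix glycoproteins and proteoglycans 14 of 30 were higher, with Vcan at 3.58 and Matn2 at 3.09, and none lower. Of other proteases and inhibitors 8 of 17 were higher and 1 lower, and the largest changes were Mmp12 (7.48), made by macrophages, and Mmp8 (4.03), made by neutrophils. Among the 24 libraries, Mmp8 was at 0 counts in 6, Mmp12 in 3, Vcan in 3 and Col8a1 in 2. Of other genes of the TGF-β and PDGF pathways 6 of 23 were higher, with the latent TGF-β binding protein Ltbp2 at 3.20 and the decoy receptor Bambi at 1.48, and 1 was lower. In LKO minus control over 12 to 96 h, the only call in any list was Plaur, the urokinase receptor, lower in LKO (-1.97, adjusted p = 0.0484).

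Markers of stellate cells outside the 38 genes were called higher at 72 h for 7 of 14 genes, including Tcf21 (log2 fold change 1.58), and lower for none. Their summed level was 266.1 to 446.9 CPM at 0 h and 655.4 CPM in the control and 490.6 CPM in the LKO pool at 72 h. In the other pools the sums were 457.9 and 380.4 CPM at 12 h, 372.8 and 415.9 CPM at 24 h, 373.4 and 387.3 CPM at 48 h, and 474.9 and 438.5 CPM at 96 h (control first). The LKO sum was thus lower at 12, 72 and 96 h and higher at 24 and 48 h. Of the 14, 13 were detected in every library, and Gfap was at 0 counts in 1.

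Markers of other cell types were counted at 72 h in the same way, beside the same shares over all genes (11% higher and 5.77% lower). Of 13 macrophage markers 8 were higher, led by Gpnmb and Trem2, and their summed level went from 177.5 to 450.9 CPM at 0 h to 923.7 CPM in the control and 1030 CPM in the LKO pool at 72 h. Of 6 smooth muscle markers tested 4 were higher, led by Actg2 and Cnn1, with sums of 6.98 to 11.5 CPM at 0 h and 30.6 and 25.0 CPM at 72 h. Actg2 and Cnn1 were at 0 counts in 9 and 12 of the 24 libraries. Of 8 portal fibroblast and mesothelial markers 1 was higher (Cd34), with sums of 13.7 to 27.6 CPM at 0 h and 30.6 and 25.8 CPM at 72 h. Of 10 sinusoidal endothelial markers 3 were lower. Of 5 cholangiocyte markers 1 was lower, of 5 neutrophil markers 1 was higher, of 5 lymphocyte markers none was called, and of 8 hepatocyte markers 1 was lower. The part of these cell types in the 72 h rise was not tested.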

How the data were processed

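RNA from snap-frozen liver, poly(A)-selected per the labels, was sequenced for 24 libraries. After adapter removal in Trimmomatic, STAR placed the reads on mm10, and its raw counts per gene are what the authors deposited. The unstranded column was used. The annotation release is not given in the sources used here. Groups came from the labels. The quasi-likelihood test of edgeR 4.0.16 (R 4.3.3) was run on counts that passed filterByExpr, with TMM scaling and Benjamini-Hochberg adjustment over all genes tested. A call needed an adjusted p under 0.05 and a 1.5-fold change. The study's own tool, DESeq2 1.42.0, was an alternative, as were RLE and library-size scaling, a looser filter (at least 1 count over the libraries), a stricter filter (10 counts in every library), a replicate or time block, and leaving out each library. CPM used TMM-scaled totals, with a prior count of 2 for log2 values. RPKM divided CPM by the exon length of GENCODE vM21 (GRCm38). The pools give 1 sample per genotype and time, so no test was made at a single time between genotypes. In the time contrasts the 5 times share the same 8 mice at 0 h, and pools of 3 mice were set against single mice, whose spread they need not share. Whether the mice within a group came from separate litters is not given in the sources used here.

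All 38 genes are accounted for. Values per sample were given for called genes and, where fewer than 6 were called, for the 3 smallest unadjusted p-values, with the 8 mice at 0 h given by range and median in the time comparisons. From the wider lists (14 lists of matrix, pathway and cell type genes) counts and at most 2 called genes with the largest change were given. The 38 genes and the lists were chosen with earlier results of these data known. Every fit across genes was run on simulated counts with known changes. There each gene had the same spread in pools and in single mice, so unequal spread in the time contrasts was not checked. Reads on no feature, ambiguous or multimapping were left out of library totals.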

Additional observations from a re-analysis of the deposited data

Results flagged for a closer look

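Of 76 groups of 4 mice checked (38 genes, control and LKO mice at 0 h), 5 held a mouse set apart from the other 3 by a gap large against the range of the group, where chance alone marks about 1 in 20 groups. Col1a1 stood at 10 CPM in control replicate 4, with the nearest other control mouse at 5.62 CPM. Col3a1 stood at 26.3 CPM in LKO replicate 4 against 17.3 CPM in the nearest LKO mouse. Des stood at 5.7 CPM in LKO replicate 2 against 4.32 CPM. Thbs1 stood at 2 CPM in LKO replicate 1 against 0.767 CPM, and without it the LKO values lay below all 4 control values. Mmp13 stood at 0.519 CPM (6 reads) in control replicate 3, while the other 3 control mice had 0 reads, which is close to the detection limit of 3 counts. No cause was tested for any of the 5.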

How the results depend on the processing

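Of the 11 counts of called genes among the 38, those of the HKO cohort, the LKO cohort at 0 h, the difference between models and the difference of genotype effects after and before APAP were 0 under every alternative. DESeq2 called 8 of the 38 at 96 h in place of 3 (2.44% of all genes in place of 0.462%), and 6 in LKO minus control over 12 to 96 h in place of 0 (4.74% of all genes in place of 0.579%). The looser filter gave 1 call there (Timp1). Leaving out 1 library or time point gave 7 to 14 calls at 12 h, 2 to 12 at 24 h, 10 to 19 at 48 h, 23 to 33 at 72 h, 0 to 3 at 96 h, 15 to 29 for late minus early pools and 0 to 3 for LKO minus control over 12 to 96 h. It gave 0 to 0 for the other 4 counts. The share of all genes called moved too, to 26.4% at 12 h without the LKO pool (7 of the 38), 11% and 8.17% at 24 h without the control and the LKO pool (2 and 3), 3.54% at 48 h without the control pool (10), 3.59% at 72 h without the control pool (23), 23.7% for late minus early without the 72 h pools (15) and 1.37% for LKO minus control without the 96 h pools (3). Leaving out 1 library, Acta2 ran from -0.96 (without the control 24 h pool, adjusted p = 0.572) to 3.044 at 24 h. Leaving out both pools of a time point, it ran from -0.394 (without the 72 h pools, adjusted p = 0.745) to 3.731 in late minus early pools. Its direction turned in both. The cause was not tested.

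Replicate numbers did not pair the mice: correlations of same-numbered deviations were -0.379, -0.188, 0.098 and 0.222 in the LKO cohort and 0.197, -0.03 and 0.104 in the HKO cohort, with only HKO cohort number 1 correlating best with its own number. With a replicate block 0 of the 38 genes were called in either cohort, against 0% of all genes in the LKO and 2.12% in the HKO cohort. Library-size scaling brought the median log2 fold change of all genes to 0.126 at 0 h (LKO), 0.143 at 24 h and 0.198 at 48 h. At 24 h it left 1 gene called lower in place of 4, with Col1a1, Col1a2 and Col6a1 lost. Depth limits Timp1, Lox, Mmp13 and Tgfb2 most, whose folds from 0 h rest on few reads.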

Other observations

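The 2 cohorts could be set side by side at 0 h. Of 34 genes tested in both, 3 were higher in all 6 mice of the HKO cohort than in all 8 mice of the LKO cohort (4.95% of 12138 genes), namely Fn1, Mmp14 and Thbs2, and 2 were lower (4.5% of genes), namely Col3a1 and Sparc. Mmp14 ran from 56.5 to 84.0 CPM in the HKO cohort and from 21.1 to 34.5 CPM in the LKO cohort. Sparc ran from 26.1 to 45.7 CPM and from 54.2 to 70.8 CPM. Reads on no annotated feature also differed, at 12.6% to 14.7% against 8.47% to 10.7%, and their part was not tested. Virus and cohort cannot be told apart.

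Among the control pools Tgfb3 reached 7.32 CPM at 48 h, against 0.337 CPM in the LKO pool and 0.486 to 2.16 CPM in the 8 mice at 0 h. Tgfb2 in the control pools reached 3.36 CPM at 24 h and 3.28 CPM at 48 h, against 0.515 and 0.674 CPM in the LKO pools, and stood at 0.656 CPM at 72 h, where the LKO pool had 1.83 CPM. Each of these values rests on 1 pool, and neither gene was called in any comparison.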
